A study of Mus musculus with 4 samples.

Results

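The open chromatin of 9 genes for chemokine and chemoattractant receptors was examined in macrophages before and after IL-4. The genes were Ccr1, Ccr2, Cx3cr1, Cxcr4, Ccrl2, C5ar1, C3ar1, Fpr1 and Fpr2. Their regions were found by merging the ATAC-seq peaks of all 4 libraries wherever they overlapped by at least 1 bp, and by taking each region whose highest peak carried the name of 1 of the 9 genes. This rule gave 54 of 60710 regions, and every gene had at least 3. A peak carries the gene of the nearest transcription start site (TSS), so the assignment is by distance and is no evidence that a region acts on that gene.

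ATAC-seq maps open chromatin through the DNA positions that the Tn5 transposase can reach. The 4 libraries came from bone marrow-derived macrophages (BMDMs) of wild-type mice aged 8 to 12 weeks, cultured for 6 days with L929 supernatant, which supplies macrophage colony-stimulating factor (M-CSF). Of these, 2 control libraries had no IL-4 and 2 libraries came from cells given IL-4 at 20 ng/ml for 1 h. The study's methods call them biological replicates, and whether the replicates came from separate mice was not given in the sources used here. BMDMs are grown in culture, so tissue signals that act on these receptors in a living animal are not in this model.

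These receptors pass through the membrane 7 times and mostly signal through inhibitory G proteins, and they steer leukocytes along gradients of chemokines, complement fragments or bacterial peptides. Ccr2 brings monocytes from the marrow to inflamed tissue, Cx3cr1 binds the membrane chemokine fractalkine, and Cxcr4 binds Cxcl12 and holds cells in the marrow. C5ar1 and C3ar1 read complement activation, whereas Fpr1 and Fpr2 sense formylated peptides. IL-4 acts on macrophages through the transcription factor STAT6, which binds palindromic sites in which TTC and GAA lie 4 bases apart.

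The sequences of the regions on which the results turn are shown first, on the plus strand of mm10, in lower case with matches to the motifs searched in capitals. The following 5 sequences are a distal Cxcr4 region at -129.9 kb, with negative distances for upstream (its central 300 bases, chr1:128722086-128722385), a window of its intron (chr1:128590801-128590840), a Cxcr4 region 85.2 kb downstream of the TSS (chr1:128506967-128507178), the promoter region of Cx3cr1 (chr9:120068201-120068499) and that of Ccr1 (chr9:123968582-123968831). The first has the lowest p of the 27 regions that could be tested, the second holds the other STAT6-type match, the third was chosen after its heights were seen, and at both promoters each IL-4 height was under each control height. All 3 genes are read from the minus strand, so these letters run against the transcripts.
Cxcr4 distal region: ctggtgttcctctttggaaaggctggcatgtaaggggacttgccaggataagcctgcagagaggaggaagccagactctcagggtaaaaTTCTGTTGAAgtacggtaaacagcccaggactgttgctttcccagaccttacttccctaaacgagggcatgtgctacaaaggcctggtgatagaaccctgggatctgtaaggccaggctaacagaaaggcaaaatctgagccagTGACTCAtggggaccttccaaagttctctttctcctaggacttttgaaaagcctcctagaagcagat
Cxcr4 intron window: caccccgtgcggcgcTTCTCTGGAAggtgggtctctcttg
Cxcr4 downstream region: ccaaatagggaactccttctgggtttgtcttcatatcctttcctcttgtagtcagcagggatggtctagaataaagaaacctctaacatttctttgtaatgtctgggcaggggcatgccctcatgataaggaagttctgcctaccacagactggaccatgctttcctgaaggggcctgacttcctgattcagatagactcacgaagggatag
Cx3cr1 promoter region: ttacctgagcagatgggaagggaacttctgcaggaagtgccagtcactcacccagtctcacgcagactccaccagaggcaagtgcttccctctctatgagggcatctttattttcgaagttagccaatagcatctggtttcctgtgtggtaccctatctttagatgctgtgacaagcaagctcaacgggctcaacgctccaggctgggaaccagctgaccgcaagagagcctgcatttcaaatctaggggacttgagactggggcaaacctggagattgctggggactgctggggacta
Ccr1 promoter region: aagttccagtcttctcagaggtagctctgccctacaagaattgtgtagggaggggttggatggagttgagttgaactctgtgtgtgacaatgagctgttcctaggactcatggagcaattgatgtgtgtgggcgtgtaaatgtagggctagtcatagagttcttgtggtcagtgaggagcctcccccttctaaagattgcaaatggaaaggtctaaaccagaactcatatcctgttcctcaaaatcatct

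The capitals in the distal Cxcr4 region are TTCTGTTGAA, of the STAT6 type, and TGACTCA, the AP-1 site bound by Fos and Jun proteins. The capitals in the intron window are TTCTCTGGAA, again of the STAT6 type. The whole distal region also holds a PU.1 match, which lies past the printed bases. The whole intron region also holds PU.1, C/EBP and interferon response matches that the window does not show. The other 3 sequences hold none of the letters searched.

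Shorter windows, with 15 bases on each side of the matches, show the sites that recur at the other genes. Those of Ccr2 are given because all 3 of its upstream regions hold AP-1 (chr9:124068552-124068588, chr9:124071679-124071715 and chr9:124073651-124073687), and in the first the PU.1 and AP-1 matches share their boundary base. The Ccrl2 window (chr9:111059043-111059088) holds a pair of overlapping interferon response matches, and the Fpr2 window (chr17:17900946-17900992) a pair of C/EBP matches on opposite strands. The C3ar1 window (chr6:122856158-122856194) holds an AP-1 match. Of the promoter regions with a peak, only that of C3ar1 held a motif match.
Ccr2 region at -33.6 kb: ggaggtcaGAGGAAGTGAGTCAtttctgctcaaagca
Ccr2 region at -30.5 kb: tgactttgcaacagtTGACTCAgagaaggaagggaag
Ccr2 region at -28.5 kb: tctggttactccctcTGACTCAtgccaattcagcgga
Ccrl2 region at -2.0 kb: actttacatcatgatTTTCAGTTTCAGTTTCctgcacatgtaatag
Fpr2 region at 13.1 kb: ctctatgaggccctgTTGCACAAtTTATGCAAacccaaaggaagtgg
C3ar1 promoter region: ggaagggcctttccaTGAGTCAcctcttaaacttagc

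Each peak has a score, read here as −log10 of the q-value of the peak caller and called peak height. It measures how firmly a peak stands above the background of its own library, grows with sequencing depth and is no read count. Depth is unknown, since the lists hold no reads. The libraries held 45250 and 41885 peaks (control replicates 1 and 2) and 41978 and 39462 peaks (IL-4 replicates 1 and 2), with median heights of 8.04, 7.46, 7.69 and 6.41, so IL-4 replicate 2 had the fewest and lowest peaks. All libraries had a peak within 1 kb of the TSS of 7 of 10 listed macrophage marker names, Lyz2, Cd68 and Itgam among them. None of the listed T cell and B cell markers had one, and S100a8 was the only 1 of 8 neutrophil markers with a peak. Kit, of the 4 mast cell and basophil markers, had a TSS peak in both IL-4 libraries (5.34 and 3.64) and in neither control, and Pdgfra of the 5 fibroblast markers one in control replicate 1. The part of such cells in the results was not tested.

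The 9 genes differed in how many regions lay near them and in where these stood. Cxcr4 had 17 regions that ran from -240.5 to 85.2 kb of its TSS, Ccr1 had 10, Ccrl2 and Fpr2 had 5 each, Ccr2 and Cx3cr1 had 4 each, and C5ar1, C3ar1 and Fpr1 had 3 each. Most were distal, as 36 of 54 (66.7%) were annotated as intergenic against 35.8% of all regions, and 6 of 54 (11.1%) lay within 1 kb of a TSS against 24.8%. Only Cxcr4, with a pair of regions, and Cx3cr1, Ccr1, C5ar1 and C3ar1 had such a region. Ccr2, Ccrl2, Fpr1 and Fpr2 had no peak within 1 kb of the TSS in any of the 4 lists, which means that none passed the caller and not that the promoters were closed. The median length of the regions was 246 bp against 209 bp for all regions.

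A peak in all 4 libraries was found at 27 of the 54 regions (50%, against 41.9% of all regions), and 12 (22.2%) had a peak in a single library, against 29.6%. Control replicates 1 and 2 held peaks at 47 and 41 of the 54 regions, IL-4 replicates 1 and 2 at 35 and 36. As shares these were 87.0, 75.9, 64.8 and 66.7%, against 72.2, 66.7, 66.5 and 62.1% for all regions. The receptor regions were thus found more often in each control library than in either IL-4 library, and across all regions the control libraries also held more.

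**Figure D1:**
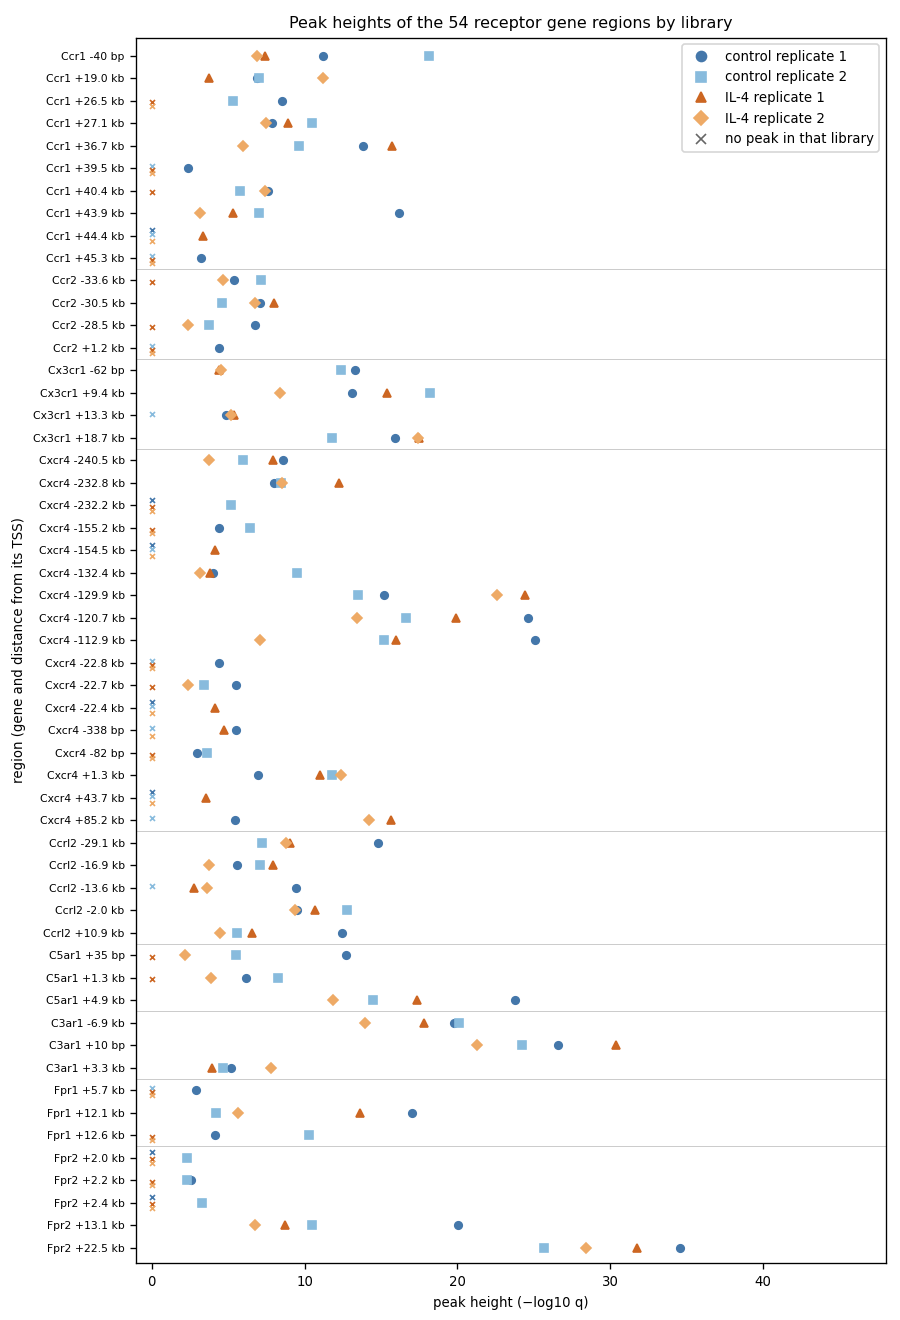
Peak height (−log10 q, horizontal axis) of each of the 54 regions (vertical axis, gene and distance from its TSS) in the 4 libraries, with circles and squares for control, triangles and diamonds for IL-4, and crosses at 0 where a library had no peak. The tallest region is that of Fpr2 at 22.5 kb, and the IL-4 symbols stand clear to the right at Cxcr4 -129.9 kb and clear to the left at the Cx3cr1 promoter.

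The first question was whether IL-4 opened or closed chromatin at these genes within 1 h, and it was addressed in the 27 regions that had a peak in each of the libraries. None of the 27 passed an adjusted p of 0.05 in limma, higher or lower, on log2-transformed and quantile-normalised heights. Of all 25442 such regions, 0.0157% were called higher and 0.00786% lower. At an unadjusted p under 0.05, 1 receptor region was higher (3.7%, against 4.12% of all) and 2 were lower (7.41%, against 4.15%). The median log2 change was 0.02 with 13 regions lower and 14 higher, beside a median of -0.001 over all regions, and the SD over regions was 0.538 against 0.504. Normalised heights of IL-4 and control did not overlap in 5 lower regions (18.5%, against 18.6% of all) and in 5 higher ones (18.5%, against 19.2%). The lower ones were at Cx3cr1 (-62 bp), Ccr1 (-40 bp and 43.9 kb), Fpr2 (13.1 kb) and C3ar1 (-6.9 kb), and the higher ones at Cxcr4 (-129.9 and -232.8 kb), Cx3cr1 (18.7 kb), Ccr2 (-30.5 kb) and C3ar1 (10 bp). The counts in both directions were thus close to those of the genome at large.

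**Figure D2:**
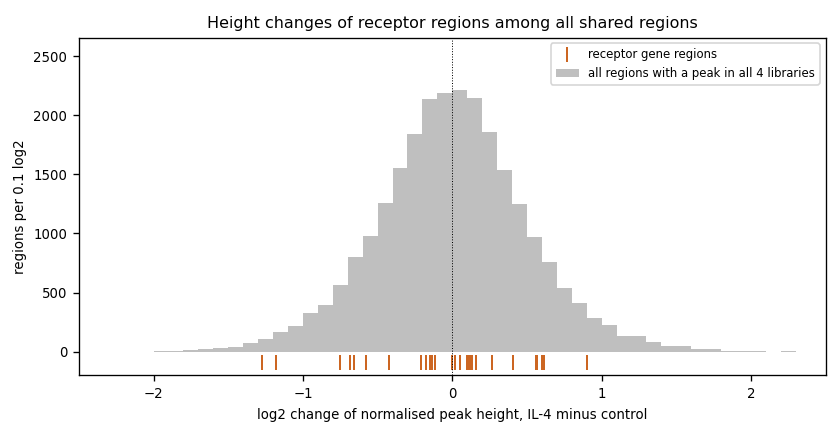
Number of regions per 0.1 of log2 change of normalised peak height, IL-4 minus control, for the 25442 regions found in every library (grey bars), with the 27 receptor gene regions as orange ticks below. The ticks spread over both sides of 0, from -1.27 to 0.90.

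Cxcr4 held the region that was most clearly higher with IL-4. Its regions with a peak in every library and a negative log2 change overlapped between groups once normalised. The distal region at -129.9 kb (chr1:128721997-128722474) is intergenic and lies between Cxcr4 and Thsd7b, the flanking protein-coding genes. It had heights of 15.19 and 13.50 in control and 24.44 and 22.58 with IL-4. Both IL-4 libraries lay above both control libraries. Its log2 change of normalised height was 0.90 ± 0.31 (SE, n = 2 per group), with an unadjusted p of 0.00474 and an adjusted p of 0.367 in limma, so it was not called. It is 1 of the 2 receptor regions with a STAT6-type match, printed above.

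The other one, in intron 1 of Cxcr4 (1.3 kb from the TSS), had heights of 6.96 and 11.77 in control and 11.03 and 12.38 with IL-4. These groups overlapped, and the log2 change of 0.60 ± 0.45 (SE) had an adjusted p of 0.777. A further region 85.2 kb downstream of the TSS had a height of 5.44 in control replicate 1, no peak in control replicate 2, and heights of 15.64 and 14.23 with IL-4. The IL-4 heights were far apart from the control there, but the region could not enter the test, which needs a peak in every library, and it was picked after its values were seen.

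Within 20 kb of the distal region, heights ran the other way or overlapped. At -112.9 kb they were 25.07 and 15.18 in control and 15.97 and 7.09 with IL-4, a log2 change of -0.66 ± 0.37 (SE) with an adjusted p of 0.651. The change ran from -0.244 without IL-4 replicate 2 to -1.066 without IL-4 replicate 1 and was -0.371 without control replicate 1. At -120.7 kb they were 24.62 and 16.66 in control and 19.92 and 13.42 with IL-4, with a log2 change of -0.12 ± 0.31 (SE). The groups overlapped at both. The region at -132.4 kb had 4.0 and 9.51 in control and 3.82 and 3.17 with IL-4, and overlapped once normalised. Farther out, at -232.8 kb, heights were 8.03 and 8.43 in control and 12.24 and 8.50 with IL-4. At the promoter of Cxcr4 peaks were low, since the region at -82 bp had heights of 2.94 and 3.64 in control and no peak with IL-4, and that at -338 bp had 5.51 in control replicate 1 and 4.76 in IL-4 replicate 1 alone.

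**Figure D3:**
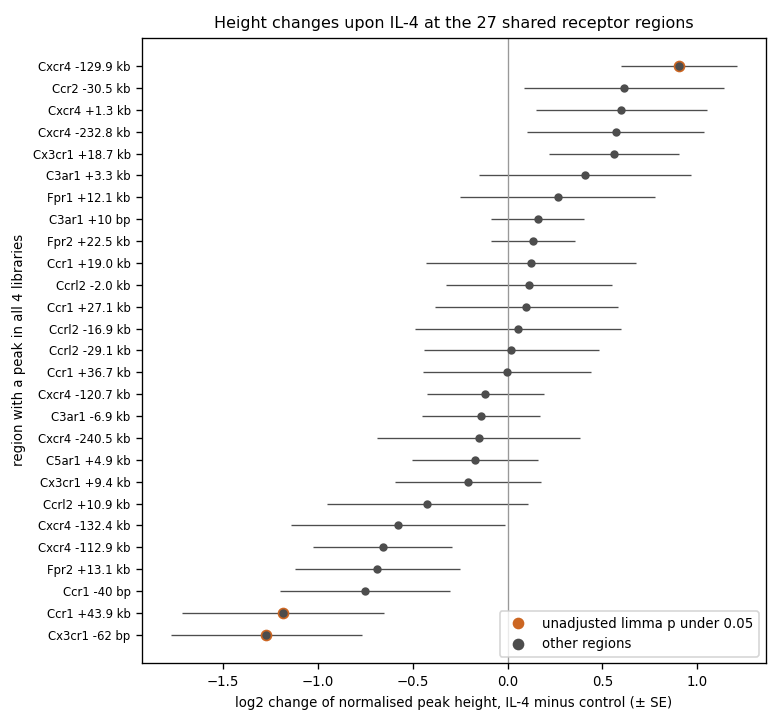
Log2 change of normalised peak height, IL-4 minus control (horizontal axis, points with SE bars from limma, n = 2 per group), for the 27 receptor gene regions with a peak in all 4 libraries (vertical axis). Orange points mark the 3 regions with an unadjusted p under 0.05, namely Cxcr4 -129.9 kb above 0 and Cx3cr1 -62 bp and Ccr1 43.9 kb below 0, and none passed after adjustment.

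Among the receptors for inflammatory chemokines, Cx3cr1 had heights that were lower without overlap at its promoter and higher without overlap at its 3′ end. The promoter region (chr9:120068201-120068499) had heights of 13.33 and 12.38 in control and 4.41 and 4.55 with IL-4. The groups were far apart and each pair of replicates was close, with a log2 change of -1.27 ± 0.50 (SE), an unadjusted p of 0.0143 and an adjusted p of 0.460 in limma. At 18.7 kb, in the 3′ UTR, heights were 15.91 and 11.78 in control and 17.46 and 17.45 with IL-4, a log2 change of 0.56 ± 0.34 (SE) with an adjusted p of 0.6997. The heights at the promoter and at the end of this gene thus lay in opposite directions, neither past the adjusted threshold. In the intron, heights at 9.4 kb overlapped between groups, and the region at 13.3 kb had peaks of 4.88 in control replicate 1 and of 5.37 and 5.18 with IL-4.

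Ccr1, a receptor for Ccl3 and Ccl5, also had lower heights at its promoter with IL-4. Heights in the promoter region were 11.18 and 18.15 in control and 7.43 and 6.86 with IL-4, without overlap, and the log2 change of -0.75 ± 0.45 (SE) had an adjusted p of 0.687. It was -0.299 without control replicate 2 and -1.213 without control replicate 1. The other 9 regions lay 19048 to 45301 bp downstream of the TSS, between Xcr1 and Ccr1. At 43.9 kb (chr9:123924368-123924979) heights were 16.20 and 7.01 in control and 5.33 and 3.15 with IL-4, a log2 change of -1.18 ± 0.53 (SE) with an unadjusted p of 0.0306 and an adjusted p of 0.555. The groups did not overlap, but control replicate 1 was far above control replicate 2, and without it the log2 change was -0.661. The highest region by the mean of the libraries, at 36.7 kb, had 13.79 and 9.61 in control and 15.74 and 6.00 with IL-4, with the IL-4 libraries on both sides of the control. The region at 26.5 kb had peaks in control alone, of 8.53 and 5.33.

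Ccr2 had no region at its promoter. The only region near the TSS, at 1.2 kb in intron 1, had a peak in control replicate 1 alone, of 4.38. The 3 upstream regions printed above form a cluster between Ccr3 and Ccr2. The middle one, at -30.5 kb, had heights of 7.10 and 4.62 in control and 7.99 and 6.78 with IL-4, with a log2 change of 0.61 ± 0.53 (SE) and an adjusted p of 0.812, and the change was 0.399 without control replicate 2. Those on either side had peaks in both control libraries and in IL-4 replicate 2, with heights of 5.36, 7.12 and 4.69 at -33.6 kb and 6.79, 3.74 and 2.37 at -28.5 kb, and no peak in IL-4 replicate 1.

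Ccrl2, an atypical receptor that binds chemerin and does not itself drive migration, had overlapping heights at the 4 regions with a peak in every library. At -13.6 kb it had 9.42 in control replicate 1, no peak in control replicate 2, and 2.80 and 3.64 with IL-4. The nearest to the TSS, and the highest by the mean of the libraries, was at -2.0 kb (chr9:111059025-111059647), with 9.52 and 12.78 in control and 10.70 and 9.37 with IL-4, a log2 change of 0.11 ± 0.44 (SE). This is the region with the overlapping interferon response matches.

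Of the complement receptors, C3ar1 had a tall promoter region in every library. The promoter region of C3ar1 (chr6:122855941-122856336) had heights of 26.57 and 24.22 in control and 30.40 and 21.26 with IL-4, and the log2 change was 0.16 ± 0.25 (SE) with an adjusted p of 0.923. It was the tallest of the promoter regions. Upstream, at -6.9 kb, heights were 19.80 and 20.09 in control and 17.83 and 13.94 with IL-4, a log2 change of -0.14 ± 0.31 (SE). The promoter region of C5ar1, in contrast, had heights of 12.72 and 5.50 in control, no peak in IL-4 replicate 1 and 2.15 in IL-4 replicate 2, so both IL-4 libraries were under the control. It had no test, for want of a peak. The highest region of C5ar1 by that mean, at 4.9 kb in intron 1, had 23.79 and 14.50 in control and 17.33 and 11.85 with IL-4, which overlapped, with a log2 change of -0.17 ± 0.33 (SE).

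The formyl peptide receptors had their tall regions downstream of their TSSs. Heights of Fpr2 at 22.5 kb (chr17:17910119-17910523) were 34.53 and 25.65 in control and 31.77 and 28.43 with IL-4, the highest of the 54 regions, with a log2 change of 0.13 ± 0.22 (SE). At 13.1 kb, the region with the pair of C/EBP matches, they were 20.04 and 10.50 in control and 8.70 and 6.76 with IL-4, without overlap, a log2 change of -0.69 ± 0.44 (SE) with an adjusted p of 0.711. Within the Fpr2 intron, peaks were low and in control libraries only, where the region at 2.2 kb had 2.59 and 2.31 and those at 2.0 and 2.4 kb had 2.31 and 3.30 in control replicate 2 alone. At Fpr1, the region at 12.1 kb had 17.02 and 4.22 in control and 13.65 and 5.64 with IL-4, so the replicates differed by more than the groups. Its neighbour at 12.6 kb had peaks of 4.14 and 10.32 in control alone, and the intron region at 5.7 kb a peak of 2.92 in control replicate 1 alone.

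Some regions held peaks in both libraries of 1 group and in none of the other. There was no IL-4-only region among the 54, against 2.53% of all regions. There were 5 control-only regions (9.26%, against 4.33%), which were those of Ccr1 at 26.5 kb, Cxcr4 at -82 bp and -155.2 kb, Fpr1 at 12.6 kb and Fpr2 at 2.2 kb. The Cxcr4 region at -155.2 kb had heights of 4.38 and 6.43. The control-only count was 2 when peaks within 500 bp were merged, and 5 to 11 with a library left out. Leaving out a library loosens the rule, so that count could only stay or rise. The shares of all regions under these rules were not computed.

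The summed height of each gene, as the sum over its regions of log2(1 + height) after quantile normalisation with a missing peak as 0, put both effects together. In 5 of the 9 genes both IL-4 libraries lay below both control libraries, against 29.1% of the 7860 genes with 3 or more regions. The sums were 26.92 and 22.54 in control and 17.10 and 18.73 with IL-4 for Ccr1, and 10.67 and 7.70 against 3.13 and 7.63 for Ccr2. For C5ar1 they were 10.93 and 9.84 against 4.15 and 8.16, for Fpr1 8.21 and 5.86 against 3.82 and 2.89, and for Fpr2 11.12 and 13.56 against 8.20 and 8.18. The Ccr2 groups barely separated, as IL-4 replicate 2 (7.63) nearly met control replicate 2 (7.70). The lower IL-4 mean of Ccr2 rested largely on IL-4 replicate 1 (3.13), which had a peak at 1 of its 4 regions.

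The sums of the other 4 genes overlapped. The differences of the means, IL-4 minus control, were 0.50 for Cx3cr1, -2.40 for Cxcr4, -0.07 for Ccrl2 and 0.23 for C3ar1, and none of the 4 kept its sign with each library left out in turn. Cx3cr1 turned to -0.57 and Ccrl2 was -2.11 without control replicate 2, Ccrl2 turned to 1.94 without control replicate 1, and without IL-4 replicate 2 Cxcr4 turned to 1.99 and C3ar1 to -0.17. Of the separated genes, Ccr2 ran from -6.19 without IL-4 replicate 2 to -1.53 without IL-4 replicate 1, and C5ar1 from -6.34 to -2.23 without the same libraries. Among the 7860 genes with 3 or more regions, 29.1% were lower with IL-4 in this way and 12.3% were higher, so sums tended to be lower with IL-4 at large. With 2 libraries a group, the exact two-sided permutation test cannot go below p = 0.3333, the value for each of the 5 separated genes. IL-4 replicate 2 had the fewest and control replicate 1 the most peaks of the 4 libraries, and the share of depth and of IL-4 in these sums cannot be told apart.

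**Figure D4:**
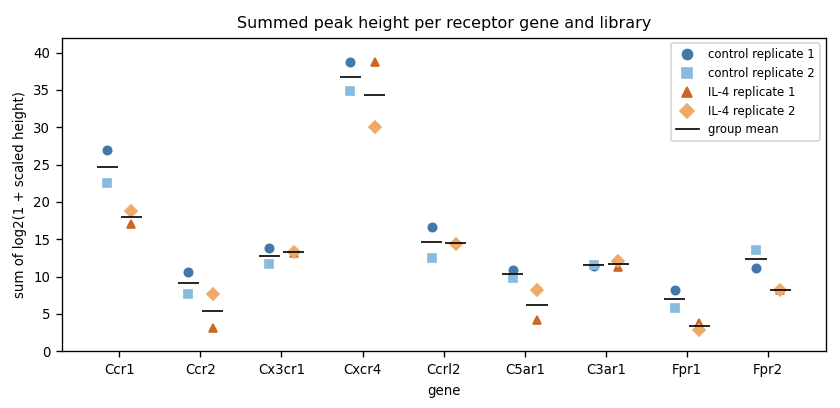
Summed peak height (sum of log2(1 + quantile-scaled height) over the regions of a gene, vertical axis) of the 9 receptor genes in each library, with control to the left and IL-4 to the right of each gene and bars for the group means. Both IL-4 libraries lie below both control libraries for Ccr1, Ccr2, C5ar1, Fpr1 and Fpr2, and the groups overlap for the other 4 genes. Of the 7860 genes with 3 or more regions, 29.1% were lower in this way.

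The sequence of each whole region was searched on both strands, with any overlap between motifs allowed. The STAT6-type motif TTCNNNNGAA matched in 2 of the 54 regions (3.7%), both of Cxcr4, against 8.01% of all regions matched for length. The same palindrome with 3 bases between TTC and GAA, TTCNNNGAA, as bound by other STAT proteins, matched in 4 (7.41%, against 7.72%). AP-1 (TGACTCA) matched in 13 (24.1%, against 19.5%), PU.1 (GAGGAAGT), the macrophage lineage factor, in 11 (20.4%, against 10.6%), and RUNX (TGTGGTT) in 8 (14.8%, against 8.88%). C/EBP (TTGCNNAA) matched in 7 (13.0%, against 13.3%), the interferon response motif (GAAA, any 2 bases, then GAAA) in 4 (7.41%, against 4.03%) and NF-kB in 1 (1.85%, against 4.07%), that of Cx3cr1 at 13.3 kb. These are descriptions of letters in the windows, and no binding was measured.

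The wider receptor family and its signal transducers were taken from lists for comparison. Both lists held older and newer symbols of some genes, so they hold more names than genes. The receptor list also held Plaur, the urokinase receptor, which is not of this family and has a control-only region. Of 39 other chemoattractant receptor names, 25 had regions, 104 in all, and 38 of these had a peak in every library. None was called by limma after adjustment, and at an unadjusted p under 0.05 none was higher and 2 were lower (5.26%, against 4.15% of all regions). The lowest p was at S1pr1, which guides cells out of lymphoid tissue along sphingosine 1-phosphate, where a region at -14354 bp had heights of 17.52 and 21.06 in control and 8.91 and 6.43 with IL-4 (log2 change -1.11 ± 0.40 SE, adjusted p = 0.394 in limma). The median log2 change of the 38 regions was -0.18, with 24 lower (63.2%, against 50.1% of all) and 14 higher. IL-4-only regions numbered 2 (1.92%, against 2.53%), as did control-only regions (1.92%, against 4.33%).

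Of 26 signal transducer names, 24 had 219 regions and 89 of these a peak in every library. None was called, and at an unadjusted p under 0.05, 1 was higher (1.12%, against 4.12% of all) and 8 were lower (8.99%, against 4.15%). The lowest p was at Rgs1, which switches off signalling of G proteins, where a region at -34442 bp had 11.57 and 10.54 in control and 20.55 and 24.10 with IL-4 (log2 change 1.21 ± 0.34 SE, adjusted p = 0.241 in limma). The IL-4 heights of this region were both above both controls. Next, and in the other direction, was Elmo1, a partner of Dock2 in cell movement. The Elmo1 region lay in intron 13, at -166348 bp of a TSS within the gene. It had 31.70 and 19.29 in control and 16.34 and 4.89 with IL-4 (log2 change -1.29 ± 0.37 SE, adjusted p = 0.249 in limma). The median log2 change was -0.06, and 3 IL-4-only (1.37%, against 2.53%) and 11 control-only regions (5.02%, against 4.33%) were found.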

How the data were processed

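ATAC-seq peak lists of 4 libraries of wild-type BMDMs were used. The authors aligned reads to mm10 with BWA, called peaks in each library with MACS2, removed blacklisted regions and annotated peaks with HOMER. The submitters' processing notes name BWA 0.7.10, SAMtools 0.1.19, MACS2 2.0.10 and HOMER 4.2. How reads were shifted for the Tn5 cut and how duplicates were handled was not given in the sources used here. No source states the unit of the deposited peak score, and it was read as −log10 of the q-value because the lowest scores, 1.3 and 1.32, lie near −log10 of 0.05. The methods name a q of 0.01 or less, that is a score of at least 2, and 133 to 603 peaks of each library scored under 2, which goes against that reading or that limit. If it is another score of the caller, heights still rank peaks within a library.

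Merging in Python 3.11.15 gave 60710 regions, as many as bedtools 2.31.1. Each was given the highest score of each library and the gene and annotation of its highest peak. The 12 mitochondrial peaks were left out. For regions found in every library, log2 heights were brought to equal quantiles before the limma fit (version 3.58.1, R 4.3.3, eBayes with trend, control against IL-4, Benjamini-Hochberg over 25442 regions). The code was tested on simulated data with planted changes larger than any at the receptor regions. That run does not tell whether changes of the size seen here could be called. Depth is unknown, so no count test was run. Summed heights were compared by an exact permutation test. Sequences are of GRCm38.p6, the assembly behind mm10, credited to RefSeq. Regions matched for length are those within a factor of 1.25 of a receptor region.

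Values are given for the region nearest the TSS and the highest region of each gene, for control-only and IL-4-only regions, and for the 5 regions with the lowest p. Regions given besides these, and the windows shown, were chosen after their values were seen. The receptor genes, both gene lists and the rule were chosen with earlier results of these data known. Alternatives tried were other normalisation, no trend, a replicate block, a score of at least 2, merging within 500 bp, a tolerated library, motifs in the central 200 bp and leaving out each library.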

Additional observations from a re-analysis of the deposited data

How the results depend on the processing

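No receptor region was called under any of the 9 other fits, and their lowest adjusted p by limma ran from 0.294 to 0.735. In 4 of these fits a group had 1 library, assumed to vary like the other group, and 3 of the 9 fits called 0 of all regions, so that receptor regions went uncalled there along with every other region. Of 117 alternative values for 13 named regions, 109 kept their direction. Leaving out the trend or adding the replicate block cannot alter a log2 change in this design, so those values could not turn. The 13 regions also include the 5 with the lowest p. The count is therefore no measure of robustness. With the libraries left out in turn, the median log2 change ran from -0.203 (without IL-4 replicate 1) to 0.049. IL-4-only regions then numbered 0 to 4, control-only regions 5 to 11 and genes with lower sums 5 to 8 (8 without control replicate 2). Leaving out a library loosens the rule for IL-4-only and control-only regions, so these counts could only stay or rise. Separation of the sums is also easier to meet with fewer libraries. These ranges are therefore no check of the counts. Merging within 500 bp left 2 control-only regions, and tolerating 1 library of the other group gave 3 regions for IL-4 and 11 for control. The regions that this tolerance added for IL-4 were 5.56% of the receptor regions, against 4.63% of all regions. Those added for control were 11.1%, against 8.67%. For merging and for left-out libraries, the shares over all regions or genes were not computed. The replicate block left 0 receptor regions called, with a lowest adjusted p of 0.3, and 14 of all regions against 6. The numbers were not taken as pairing, as the deviations of same-numbered libraries had r = 0.00677 over 25442 regions. The fit without a trend called 0 of all regions, median centring 8, and leaving out libraries 0 to 12.

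Directions turned with a library left out at C5ar1 4.9 kb (-0.457 to 0.11), Ccrl2 -2.0 kb (-0.21 to 0.435), Ccr1 36.7 kb (-0.528 to 0.511), Fpr1 12.1 kb (-0.639 to 1.171) and Fpr2 22.5 kb (-0.021 to 0.299), and at Fpr1 12.1 kb also on merging (-0.36). None of these had passed a test, and the cause was not tested. In the central 200 bp the STAT6-type motif matched in 1 region, C/EBP in 4 and the interferon response motif in 2. Without control replicate 1 or IL-4 replicate 2, 1 region was lower at an unadjusted p under 0.05 in place of 2, and without IL-4 replicate 2 none was higher. Unknown depth limits every height near the limit of the caller.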
